A study of Mus musculus with 6 samples.

Results

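Transcripts of glycolysis and the pentose phosphate pathway were compared between splenic natural killer (NK) cells that carried the receptor CD117 and those that did not. The genes form a list of 36, made up of glucose and lactate transporters, the enzymes from hexokinase to lactate dehydrogenase, the kinases and subunits of pyruvate dehydrogenase, the pentose phosphate enzymes and the regulator Hif1a. Of these, 31 were among the 17626 genes with a named probe on the array, and 28 were among the 11742 genes bright enough to be tested. No named probe was listed for Hk3, Gpi1, Eno1, Slc16a3 and G6pdx in the annotation used here. Bpgm, Slc16a1 and Hif1a had a probe that fell below the filter on dim signal.

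Both groups came from spleens of female C57Bl/6 mice aged 7 weeks and were sorted as CD3- NK1.1+ cells. Kit+ cells also bore CD117, the product of Kit, on their surface, and Kit- cells did not. Each group had 3 samples, 1 Illumina bead array each, numbered 1 to 3 in the titles of both groups. The labels name no treatment of the mice and do not say how many animals went into a sample. The main fit set Kit+ against Kit- within each number. Its p-values measure how these differences vary over the 3 numbers, not how animals or the levels of the numbers vary.

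Glycolysis splits glucose to pyruvate in the cytosol and yields ATP without oxygen. Pyruvate is then reduced to lactate and exported, or enters the mitochondrion through pyruvate dehydrogenase, which its kinases switch off. The pentose phosphate pathway branches from the first product of hexokinase and supplies NADPH and ribose for biosynthesis. In NK cells glucose use is known to climb on cytokine activation and to feed proliferation and interferon-gamma production, and many of the enzymes exist as isoforms encoded by separate genes.

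Values are normalized log2 intensities, so a difference of 1 is a doubling. A probe counted as above background on an array where it exceeded the 95th percentile of 1174 probes for olfactory and vomeronasal receptors, which lay between 6.58 and 7.23. The arrays differed in brightness, with raw medians of 68.9 to 130 and between 15.1% and 29.8% of all probes above background. The sort gene Kit, as a check of the labels, averaged 8.34 ± 0.55 over the Kit- samples and 11.17 ± 0.79 over the Kit+ samples (mean ± SD of 3). Klrb1c, which encodes NK1.1, was above background on all 6 arrays. It was lower in Kit+ in all 3 numbers, with a log2 fold of -0.6, and did not pass (limma adjusted p = 0.0705). The NK cell marker list summed to linear signals of 43700 to 47200 in Kit- and 33100 to 43900 in Kit+.

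Most of the pathway did not pass the test. In the limma fit with the title number as a block, Hk2 was higher in Kit+, and Pfkp and Pdhb were lower. That is 1 of 28 tested members higher, where 3.92% of all tested genes were higher, and 2 of 28 lower, where 4.42% were. With no block, none was higher and 1, Pfkp, was lower, beside 0.528% and 0.758% of all genes. The median log2 fold over the 28 members was 0.00 and that over all tested genes 0.03. Direction alone was mixed. In the sample pairs of the same number, 4 members were higher in Kit+ in all 3 (24.3% of all genes were) and 6 were lower in all 3 (17.3% of all genes).

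**Figure D1:**
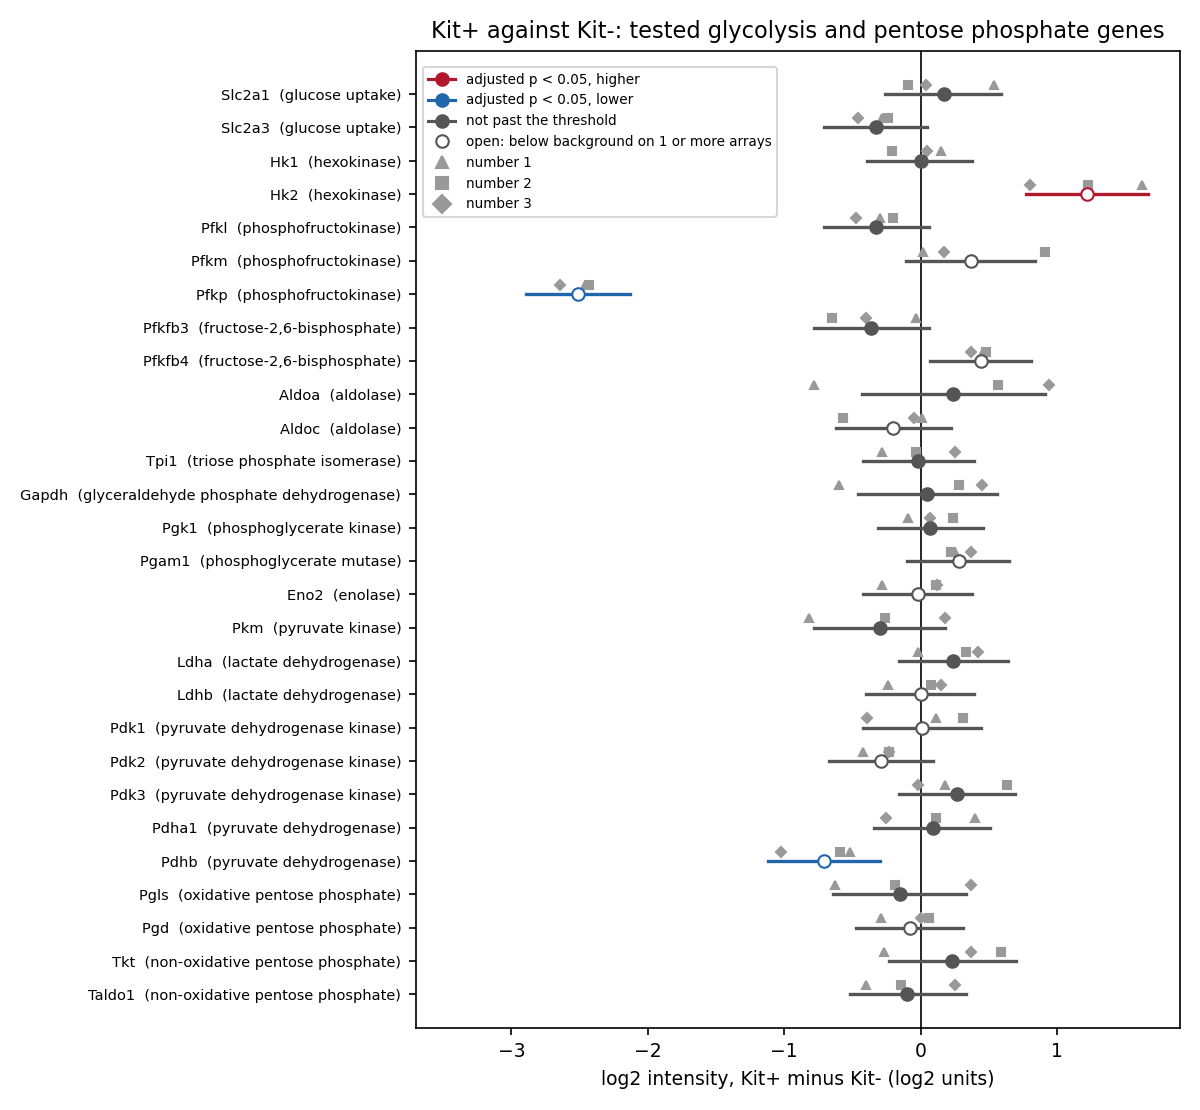
Difference in normalized log2 intensity, Kit+ minus Kit-, for the 28 tested genes in pathway order; large points are the fitted difference, bars its 95% confidence interval, and small grey symbols the 3 sample pairs of the same title number. Pfkp stands apart at -2.51, Hk2 lies at 1.22 and Pdhb at -0.71, and the remaining 25 genes lie between -0.36 and 0.44.

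The phosphofructokinases catalyse the committing step of glycolysis and are encoded by Pfkl (liver type), Pfkm (muscle type) and Pfkp (platelet type). The Pfkp probe read 8.70, 8.71 and 8.81 in Kit- 1, 2 and 3, and 6.24, 6.28 and 6.17 in Kit+ 1, 2 and 3. All Kit- arrays were far above background and all Kit+ arrays were below it, so the groups did not overlap. The raw signals show the same order, at 1010, 233 and 399 in Kit- and 79.2, 97.3 and 68.2 in Kit+, each of the latter under its array's median. The log2 fold was -2.51 (SE 0.17, limma adjusted p = 0.00043, and 0.00493 with no block, n = 3 per group). Because the Kit+ signal was not well above background, the difference is given as at least 3.9-fold lower in Kit+. The SD was 0.06 around a Kit- mean of 8.74 and 0.05 around a Kit+ mean of 6.23, the latter for a signal at background.

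Pfkl, the liver-type subunit, read 8.55, 9.32 and 9.47 in Kit- and 8.25, 9.12 and 8.99 in Kit+. The groups overlapped, and the log2 fold was -0.33 (95% interval -0.71 to 0.06, limma adjusted p = 0.313). Pfkm, the muscle-type subunit, read 7.36, 6.82 and 7.37 in Kit- and 7.39, 7.73 and 7.53 in Kit+, with Kit- 2 below background. Its log2 fold was 0.37 (interval -0.11 to 0.84, limma adjusted p = 0.372). Both intervals leave out a change of the size seen for Pfkp. Pfkm was higher in Kit+ in all 3 numbers, by 0.02, 0.91 and 0.17, and its groups did not overlap, while Pfkl was lower in all 3, by -0.30, -0.20 and -0.47. With Pfkp at background on the Kit+ arrays, its gap to the other isoforms is not measured there.

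Pfkp had 5 probes, and the fall was seen with the brightest. The other 4 were not well above background, with at most 2 arrays above it, and their mean differences lay between -0.26 and 0.23 log2 units. With the mean of the 3 probes that passed the filter, the log2 fold was -0.87 (limma adjusted p = 0.0148).

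**Figure D2:**
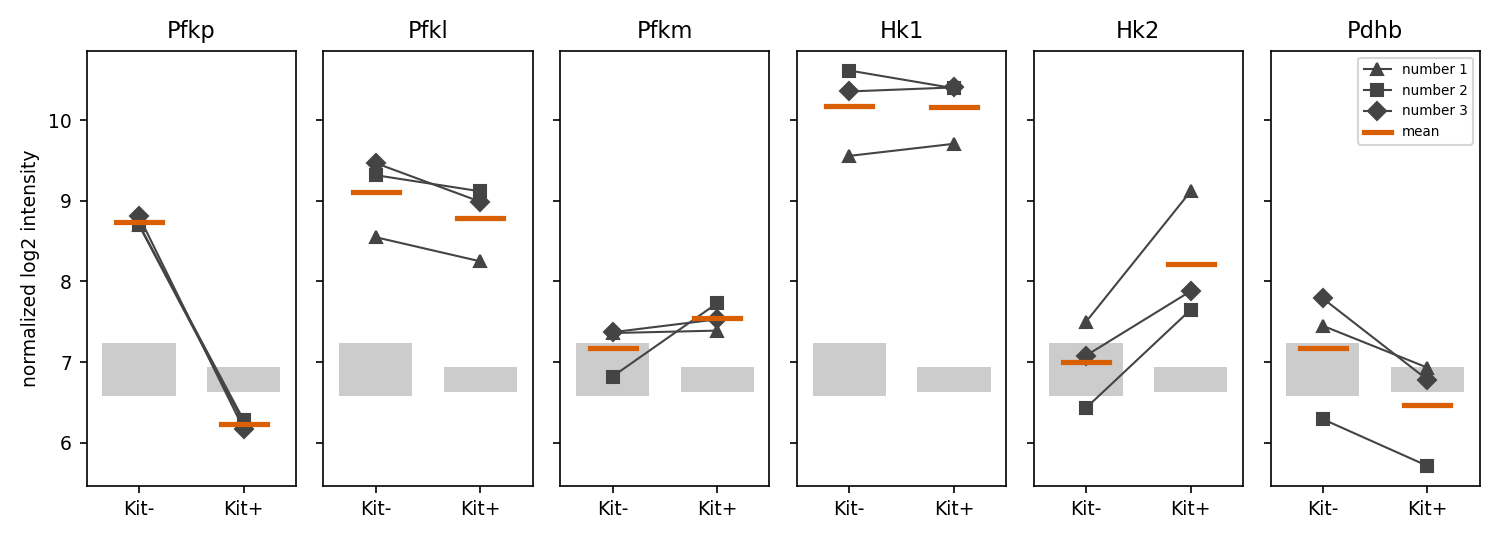
Normalized log2 intensity of 6 genes in each sample; lines join samples of the same title number, orange bars are group means (n = 3), and grey boxes span the background levels of the arrays in that group. Pfkp drops from 8.74 to 6.23, below the background boxes, while the log2 fold is -0.33 for Pfkl, 0.37 for Pfkm and 0.00 for Hk1, and Hk2 is higher in Kit+ in all 3 numbers.

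Hexokinases trap glucose in the cell as glucose phosphate. Hk1 is the widely expressed form and Hk2 an inducible form of activated and dividing cells. The Hk2 probe read 7.50, 6.43 and 7.08 in Kit- and 9.12, 7.65 and 7.88 in Kit+. In these normalized values every Kit+ array lay above every Kit- array, with Kit+ 2 closest to Kit- 1, and Kit- 2 was below background. The raw signals were 390, 104 and 115 in Kit- and 1190, 162 and 174 in Kit+. They were higher in Kit+ in each number, but the raw groups overlapped, with Kit+ 2 and Kit+ 3 under Kit- 1. The log2 fold was 1.22 (SE 0.20, a 2.32-fold rise, limma adjusted p = 0.00838), and 1.93-fold with Kit- 2 set at its background level. With no block the adjusted p was 0.263. Number 1 stood above the others in both groups. Without the number 2 samples it was 0.0861. Hk1 read 9.56, 10.62 and 10.36 in Kit- and 9.71, 10.40 and 10.41 in Kit+, with a log2 fold of 0.00 (interval -0.39 to 0.38, limma adjusted p = 0.992). Relative to Hk1, the Hk2 signal was higher in Kit+ by 1.47 log2 units in number 1 and 0.75 in number 3, and the gap in number 2 is not measured, since Hk2 was below background in Kit- 2.

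Some markers of other cells and of division also rose. Of 13 tested macrophage and monocyte markers, 7 rose and none fell, and the summed linear signal of the list was 1700 to 1760 in Kit- and 3940 to 4590 in Kit+. Adgre1, a macrophage surface receptor and the list's defining marker, was above background on 1 Kit- array and on all 3 Kit+ arrays (limma adjusted p = 0.00129 for a log2 fold of 1.92, SE 0.21). Lyz2, C1qa, C1qc, Mertk, Ccr2 and Marco of the same list did not pass. Cd14, Cd163, Fcgr1 and Msr1 were below background on every array and were not tested. Of 13 cell cycle genes, 5 rose and none fell, 8 had a log2 fold above 0, and the summed signals overlapped, at 2890 to 4810 and 4210 to 6520. Of the dendritic cell markers 5 of 10 tested rose (summed signal 2590 to 4350 in Kit- and 5070 to 12300 in Kit+), of the neutrophil markers 4 of 9 (982 to 1160 and 1410 to 3090), of the progenitor markers 3 of 8 (976 to 1110 and 1350 to 1890), of the T cell markers 2 of 9 (1840 to 3110 and 2910 to 4870), of the B cell markers 1 of 8 (675 to 1000 and 815 to 1850) and of the erythroid markers 0 of 8 (925 to 1480 and 1560 to 2340), with no fall in these 6 lists. Of the 10 NK cell markers 3 fell (Eomes, Tbx21 and Nkg7) and none rose, while 5 had a log2 fold above 0. With no block, 5 macrophage and monocyte markers, 2 cell cycle genes and 1 dendritic cell marker were higher, 1 NK cell marker was lower, and none of the neutrophil, progenitor, T cell, B cell or erythroid markers passed. Cd3e, the T cell marker that the sort selects against, was lower in Kit+ in all 3 numbers (log2 fold -0.81, limma adjusted p = 0.0974). The other CD3 chains went the other way in all 3. Cd3d rose (log2 fold 1.44, limma adjusted p = 0.00331, and 0.194 with no block), and Cd3g did not pass (0.48, limma adjusted p = 0.146). The part of these cells in the results for Hk2, Pfkp and Pdhb was not tested. In RNA from sorted populations, a change in the share of cells that use a gene and a change of RNA per cell cannot be told apart.

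The start regions of Pfkp, Pfkl and Hk2 are shown because these genes differ in response at the upper, regulated steps of the pathway. The 250 bases before each start come from RefSeq (GRCm38.p6). They lie at chr13:6648772-6649021 on the minus strand, at chr10:78009808-78010057 on the minus strand and at chr6:82774455-82774704 on the minus strand. Capitals mark ACGTG or GCGTG on either strand, the core letters bound by hypoxia-inducible factors, and CACGTG, an E-box, would overlap such a match.
Pfkp: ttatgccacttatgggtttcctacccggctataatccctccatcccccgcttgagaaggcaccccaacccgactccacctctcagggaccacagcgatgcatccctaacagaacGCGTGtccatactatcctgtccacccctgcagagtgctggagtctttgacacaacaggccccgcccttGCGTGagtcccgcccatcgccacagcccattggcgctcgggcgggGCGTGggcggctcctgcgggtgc
Pfkl: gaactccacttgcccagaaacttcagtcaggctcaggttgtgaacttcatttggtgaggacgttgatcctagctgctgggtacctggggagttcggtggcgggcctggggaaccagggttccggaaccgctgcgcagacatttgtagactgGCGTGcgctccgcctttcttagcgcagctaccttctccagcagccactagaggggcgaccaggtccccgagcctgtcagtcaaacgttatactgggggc
Hk2: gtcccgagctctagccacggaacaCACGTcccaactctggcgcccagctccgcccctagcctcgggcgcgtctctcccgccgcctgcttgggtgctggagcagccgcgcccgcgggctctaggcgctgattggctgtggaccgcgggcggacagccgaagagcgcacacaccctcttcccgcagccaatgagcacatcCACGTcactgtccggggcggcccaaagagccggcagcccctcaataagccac
Pfkp has 3 matches, Pfkl 1 and Hk2 2, with no E-box among them. RefSeq windows were found for 35 of the 36 genes, and 39 of their 50 windows (78%) held a match. The share was 52% of windows of the tested genes and 38.6% of all windows. Windows of the same gene can overlap and hold the same site, as for Eno1, and members without a named probe are included. These shares were not matched for base composition. Both the gene that fell and the gene that rose hold matches, which are a description of letters and not of binding.

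Glucose enters through Slc2a1 (GLUT1) and Slc2a3 (GLUT3). Slc2a1 read 9.29, 8.76 and 8.92 in Kit- and 9.83, 8.68 and 8.97 in Kit+, and Slc2a3 read 9.97, 10.27 and 10.59 in Kit- and 9.69, 10.03 and 10.12 in Kit+. The groups overlapped for both transporters, though Slc2a3 was lower in Kit+ in all 3 numbers. The log2 fold was 0.17 for Slc2a1 (interval -0.26 to 0.59) and -0.33 for Slc2a3 (interval -0.71 to 0.05), with limma adjusted p = 0.716 and 0.306. Within the arrays, Slc2a1 relative to Slc2a3 was higher in Kit+ by 0.82, 0.16 and 0.51 log2 units in numbers 1, 2 and 3 (exact two-sided permutation p = 0.25, the smallest that 3 pairs allow, and 0.306 after adjustment over the 11 isoform pairs compared).

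The activator of phosphofructokinase, a fructose bisphosphate, is made by Pfkfb3 and Pfkfb4. Pfkfb3 read 6.99, 8.43 and 7.85 in Kit- and 6.97, 7.77 and 7.45 in Kit+ (log2 fold -0.36, limma adjusted p = 0.312). Pfkfb4 read 6.58, 6.73 and 7.01 in Kit- and 7.04, 7.21 and 7.39 in Kit+ (log2 fold 0.44, limma adjusted p = 0.149). Pfkfb4 did not overlap between the groups, but only 1 Kit- array was above background. It was the 1 member that did not pass although its unadjusted p, 0.0262, was under 0.05.

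No tested enzyme gene of the later steps of glycolysis passed the test, and the intervals of some leave room for changes in either direction. Gapdh, the dehydrogenase often used as a reference gene, read 11.60, 12.20 and 11.79 in Kit- and 11.00, 12.48 and 12.24 in Kit+, with a log2 fold of 0.05 (interval -0.46 to 0.56). Its second probe, also above background on all 6 arrays, had a mean difference of 0.25. The log2 fold was 0.24 for the aldolase gene Aldoa (interval -0.43 to 0.91), -0.02 for the isomerase gene Tpi1 (-0.42 to 0.39), 0.07 for the ATP-yielding kinase gene Pgk1 (-0.31 to 0.46) and -0.30 for the pyruvate kinase gene Pkm (-0.78 to 0.18). None of these passed, with limma adjusted p between 0.498 and 0.975.

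Number 1 and number 3 differed in direction for several of these enzymes. Aldoa was lower in Kit+ 1 than in Kit- 1, by -0.78, and higher in number 3, by 0.94. The same held for Gapdh, at -0.60 and 0.45, and for Pkm, at -0.82 and 0.18. Pgam1, the phosphoglycerate mutase gene, was the member that varied most with the number. It read 8.21, 6.47 and 6.72 in Kit- and 8.46, 6.69 and 7.09 in Kit+, so that number 1 was high in both groups while the log2 fold was 0.28 (limma adjusted p = 0.397). Both arrays of number 2 were below background, so its distance to the other numbers is not measured. In 23 of the 28 tested members the 3 numbers lay further apart than the groups, with a median range between number means of 0.44 against a median fold size of 0.24. A range over the number means tends to exceed a difference between the group means even where the number has no effect. The count therefore measures no such effect, and the share over all tested genes was not counted.

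**Figure D3:**
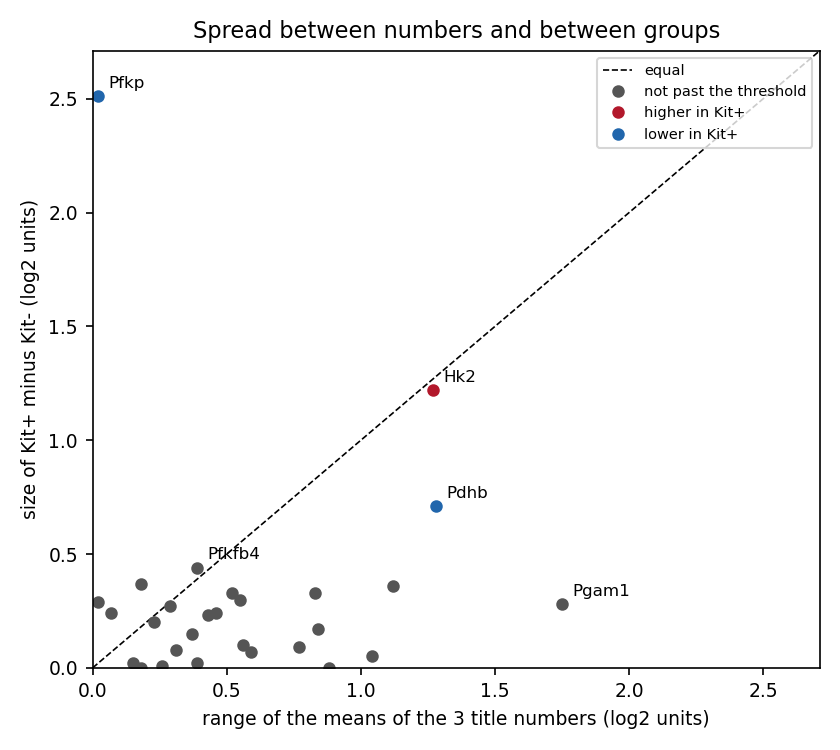
Size of the log2 difference between Kit+ and Kit- against the range of the means of the 3 title numbers, one point per tested gene, with a dashed line where they are equal. Pfkp lies far above the line, Hk2 just under it, and Pgam1 at the right end with a range of 1.75, its arrays of number 2 being below background.

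Aldoc and Eno2, isoforms best known from brain, and Ldhb, the heart-type lactate dehydrogenase subunit, were not above background on any array, as was Pgd of the pentose phosphate pathway. They passed the filter on mean signal only, and their folds of -0.20 for Aldoc, -0.02 for Eno2, 0.00 for Ldhb and -0.08 for Pgd carry no level. The same was true of Bpgm, which makes the haemoglobin effector of red cells, of the lactate transporter Slc16a1 and of Hif1a, the oxygen-regulated subunit of the hypoxia-inducible factor, each below background on all 6 arrays. The only Pgd probe is not annotated to a curated mRNA. Nor are the probes used for Ldhb, Bpgm and Hif1a, but their other probe, which is, was also below background on all 6 arrays. Ldha, the muscle-type subunit that favours lactate formation, read 10.33, 10.09 and 10.04 in Kit- and 10.31, 10.43 and 10.46 in Kit+ (log2 fold 0.24, interval -0.16 to 0.64, limma adjusted p = 0.51). The groups overlapped through number 1 alone.

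Pyruvate dehydrogenase joins glycolysis to the mitochondrion. Pdhb, its beta subunit, read 7.45, 6.29 and 7.79 in Kit- and 6.93, 5.71 and 6.78 in Kit+. It was lower in Kit+ in each number, but the groups overlapped and both number 2 arrays were below background. The log2 fold was -0.71 (SE 0.18, limma adjusted p = 0.0451, and 0.642 with no block). Its probe is not annotated to a curated mRNA, and the 2 that are had mean differences of -0.08 and 0.08. With the mean of the 3 the log2 fold was -0.24 (limma adjusted p = 0.458), and the call was also lost without number 2 (0.145) or number 3 (0.225). The alpha subunit gene Pdha1 had a log2 fold of 0.09 (interval -0.34 to 0.51, limma adjusted p = 0.871).

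The kinases that switch this enzyme off did not pass. Pdk1, a hypoxia-inducible form, had a log2 fold of 0.01, Pdk2 of -0.29 and Pdk3 of 0.27, with limma adjusted p = 0.988, 0.375 and 0.494. Pdk3 was above background on all 6 arrays, Pdk1 on 3 and Pdk2 on 1.

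In the pentose phosphate pathway none of the 4 tested members passed. Pgls, the lactonase gene of the oxidative branch, read 10.75, 10.16 and 10.01 in Kit- and 10.12, 9.97 and 10.38 in Kit+. Tkt, the transketolase gene, read 10.99, 10.69 and 11.10 in Kit- and 10.72, 11.29 and 11.47 in Kit+. Taldo1, the transaldolase gene, averaged 10.25 ± 0.31 over the Kit- samples and 10.16 ± 0.36 over the Kit+ samples (mean ± SD of 3), with differences of -0.40, -0.14 and 0.25 in numbers 1, 2 and 3. The groups overlapped for all 3 genes, and 2 of the 3 other kept Pgls probes had the opposite sign. Their log2 folds were -0.15 for Pgls (interval -0.64 to 0.33), 0.23 for Tkt (-0.23 to 0.70) and -0.10 for Taldo1 (-0.52 to 0.33), with limma adjusted p = 0.786, 0.611 and 0.852. Over all 16 members that were above background on every array, the fold lay between -0.36 and 0.27, none passed, and every 95% interval lay between -0.78 and 0.91. This condition leaves out Pfkp, Hk2 and Pdhb, each below background on some array, so the lack of calls partly follows from it. The share of all tested genes that passed under the same condition was not counted.

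**Figure D4:**
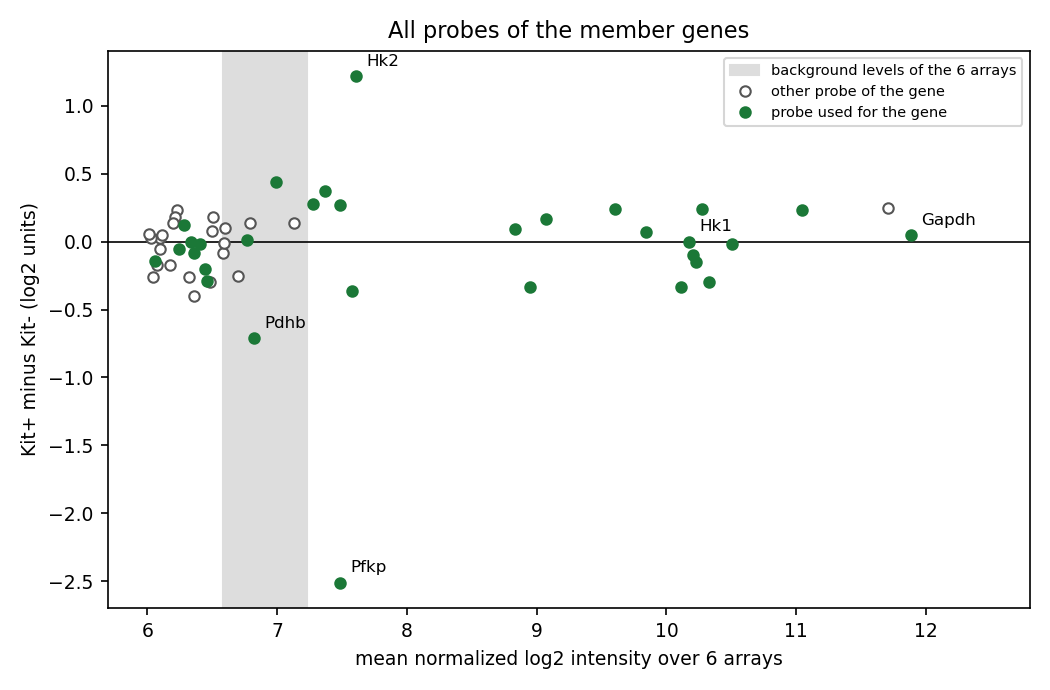
Mean difference between Kit+ and Kit- against mean normalized log2 intensity for all 54 probes of the 31 genes with a probe; filled points are the probe used for the gene, open points its other probes, and the grey band spans the background levels of the 6 arrays. Most open points lie in or left of the band, and the Pfkp probe at -2.51 lies far below the others.

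Genes around the pathway were read off the same fit. Of 17 other tested glycolysis genes, 2 rose and none fell (list median 0.09). Slc2a6, a glucose transporter of the same family as Slc2a1, rose 1.7-fold (limma adjusted p = 0.0363, and 0.162 with no block), the Kit- mean being 8.64 ± 0.18 and the Kit+ mean 9.41 ± 0.29 (SD of 3 samples). Adpgk, the ADP-dependent glucokinase, rose 1.78-fold (limma adjusted p = 0.0196, and 0.0888 with no block), or 1.69-fold with Kit- 2 set at its background level. Among its 3 other probes past the filter, 2 had the opposite sign. Of 5 other pentose phosphate genes none passed (list median 0.48). The closest were Prps2 and Prps1, which encode ribose phosphate pyrophosphokinases, at log2 folds of 0.92 and 0.56 (limma adjusted p = 0.0647 and 0.0958). Prps2 was below background in Kit- 2.

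Of 12 other genes of pyruvate and lactate handling, Emb rose and none fell (list median 0.03). Emb encodes embigin, a glycoprotein that accompanies monocarboxylate transporters to the membrane. It read 8.93, 8.98 and 9.56 in Kit- and 11.31, 10.88 and 10.78 in Kit+, with no overlap (log2 fold 1.83, SE 0.23, limma adjusted p = 0.00244, and 0.0202 with no block). Bsg, its relative with the same role, had a log2 fold of -0.27 (limma adjusted p = 0.575).

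Among 6 tested regulators of the hypoxia-inducible factor, 2 fell and none rose (list median 0.01). Both encode prolyl hydroxylases that mark the factor for destruction when oxygen is present. Egln1 read 7.25, 7.48 and 7.69 in Kit- and 5.94, 6.18 and 6.40 in Kit+, below background on all Kit+ arrays, and was at least 1.62-fold lower there (limma adjusted p = 0.00268, and 0.0352 with no block). Egln2 fell 2.01-fold (limma adjusted p = 0.0184, and 0.0717 with no block), the Kit- mean being 8.60 ± 0.15 and the Kit+ mean 7.59 ± 0.28 (SD of 3 samples). The related Egln3 had a log2 fold of 0.28 (limma adjusted p = 0.50). Of 12 other known target genes of the factor, P4ha1, a collagen prolyl hydroxylase gene, rose 1.93-fold (limma adjusted p = 0.0347, and 0.144 with no block), or 1.5-fold with the 1 Kit- array below background set at its background level, and none fell (list median 0.01).

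Of 12 genes of Myc, mTOR and nutrient uptake, 1 rose and 1 fell (list median 0.08), both encoding parts of amino acid transport. Slc1a5, a glutamine transporter, read 7.97, 8.41 and 8.28 in Kit- and 6.47, 7.18 and 6.60 in Kit+ (log2 fold -1.47, SE 0.18, limma adjusted p = 0.00197, and 0.0378 with no block), with 1 Kit+ array above background, and was 2.58-fold lower in Kit+ with the other 2 at their background level. Slc3a2, the heavy chain that pairs with Slc7a5, read 11.85, 6.94 and 8.48 in Kit- and 12.49, 8.13 and 9.49 in Kit+. It was higher in Kit+ in each number (log2 fold 0.95, limma adjusted p = 0.015), a rise of 1.8-fold with Kit- 2 set at its background level. But Slc3a2 spread far more between numbers than between groups, with a limma adjusted p of 0.924 with no block, and its other probe had the opposite sign. Slc7a5 had a log2 fold of 0.13 (limma adjusted p = 0.762).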

How the data were processed

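RNA of 6 sorted NK cell samples was measured on Illumina bead arrays. Raw probe intensity, linear, is what the authors deposited for each array, per the file headers, and BeadStudio 3.1.1.0 is named in the submitters' processing notes. The deposited value table of the series holds intensity that matched quantile-normalized raw intensity within 0.123 units, on a linear scale, not centred and with the direction of the raw signal, with a median of 92.78 in each column. The planned neqc correction needs detection p-values, which these tables do not hold, so raw intensities were corrected with limma's normexp (offset 50), converted to log2 and then quantile normalized between arrays.

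Of 45988 probes, 29457 had 1 gene symbol, 11 several and 16520 none listed; symbols were updated by gene ID through RefSeq (GRCm38.p6), which held 29399. A gene was represented by its probe with the highest mean in the value table and tested where that probe's mean lay above the median of all probes. Kit+ was compared with Kit- by linear models (limma 3.58.1, eBayes, R 4.3.3) with the title number as a block and Benjamini-Hochberg adjustment over 11742 genes (threshold 0.05), which called 460 genes higher and 519 lower. The numbers were taken as pairs because the series text describes sorts and comparisons done 3 times. Deviations of same-numbered samples also correlated at 0.641, 0.529 and 0.278, those of different numbers between -0.576 and 0.0882. As deviations were taken from each group's own mean, a positive value for the same number pulls the others down. The share of probes above background also differed between numbers, so the correlations do not show that same-numbered samples share a sort. Values called "with no block" come from the same fit without it.

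The members, lists and the blocked design were chosen with earlier results of these data known; the receptor probes that define background were picked after seeing the values. Every listed gene with a probe could be named; of the other lists, those past the threshold and up to 4 more with the smallest p. The fit was tested on simulated arrays. The number of arrays limits the precision. Alternatives are given at the end.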

Additional observations from a re-analysis of the deposited data

How the results depend on the processing

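Of 18 other settings, Pfkp passed in 16, Hk2 in 9 and Pdhb in 7, with the direction kept, and the other 25 tested members passed in none. With no replicate block 62 genes were higher and 89 lower, and 0 members higher and 1 lower. With median centring 14 genes were higher and 10 lower (460 and 519 with quantile normalization), 1643 had an unadjusted p under 0.05, and 0 members passed in limma; Pfkp had a log2 fold of -2.47 (adjusted p = 0.065, over the settings 5.53e-18 to 0.065). With the mean of all kept probes 1 member was lower. The cause was not tested. Leaving out both samples of a number gave 62 to 687 genes higher and 98 to 554 lower, with 0 to 1 members higher and 1 to 2 lower; it was without number 2 that the counts fell to 62 and 98, and Hk2 and Pdhb did not pass. These fits have few residual degrees of freedom. Leaving out 1 sample with no block gave, in turn, 28 higher and 50 lower without Kit- 1, 17 higher and 22 lower without Kit+ 1, 14 higher and 23 lower without Kit- 2, 14 higher and 17 lower without Kit+ 2, 3 higher and 6 lower without Kit- 3, 0 higher and 0 lower without Kit+ 3. Without Kit+ 3 none passed (1302 genes at an unadjusted p under 0.05 in limma) and Pfkp had an adjusted p of 0.0544; in the other 5 Pfkp alone passed among members. The sign turned under some settings for 15 genes, with these log2 folds where it turned and, after a slash, the range without both samples of a number: Slc2a1 (-0.02, -0.17 / -0.02 to 0.29), Hk1 (0.06, 0.02, 0.1, 0.23, 0.21, 0.09 / -0.08 to 0.1), Aldoa (-0.11, -0.07 / -0.11 to 0.75), Tpi1 (0.03, 0.11, 0.16, 0.01 / -0.15 to 0.11), Gapdh (-0.07, -0.16, -0.08, -0.24, -0.12 / -0.16 to 0.37), Pgk1 (-0.01, -0.07, -0.09 / -0.01 to 0.15), Pgam1 (-0.24, -0.05 / 0.23 to 0.31), Eno2 (0.11, 0.05, 0.04 / -0.09 to 0.11), Ldhb (0, 0.02, 0.12, 0.09, 0.03, 0.01 / -0.08 to 0.12), Pdk1 (-0.08, -0.04, -0.14, -0.12, -0.01 / -0.14 to 0.21), Pdha1 (-0.07, -0.17, -0.13 / -0.07 to 0.25), Pgls (0.03, 0.09, 0.07 / -0.41 to 0.09), Pgd (0.03, 0.06 / -0.15 to 0.03), Taldo1 (0.06, 0.1, 0.07 / -0.27 to 0.06), Slc3a2 (-0.61, -0.28, -0.13 / 0.83 to 1.1).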
